A study of Mus musculus with 6 samples.

Results

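The genes described here are 39 genes of mitosis and cytokinesis. They were chosen by gene name, with earlier results of these data known, and all 39 were found among the 38258 genes of the deposited RNA-seq table. They were measured in epidermal cells of newborn (postnatal day 0) mouse back skin, taken by cell sorting as positive for EpCAM and Sca1 and high for α6-integrin, a gate for the interfollicular epidermis that enriches its progenitors. There were 3 libraries labelled triple knockout, with genotype Eed -/- Ring1a-/- Ring1b-/-, and 3 libraries labelled control, whose alleles are not stated further. *Eed* belongs to Polycomb repressive complex 2, a histone H3 methyltransferase, and *Ring1* (Ring1a) and *Rnf2* (Ring1b) encode the ubiquitin ligases of Polycomb repressive complex 1. The promoter or Cre driver behind the deletion, and whether the libraries of a group came from separate animals, are not stated by the labels, so each p-value rests on the spread between libraries, which may be technical.

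In a dividing cell, cyclin-dependent kinase 1 with cyclins A and B drives entry into mitosis, condensin and topoisomerase II shape the chromosomes, and kinetochores tie them to the spindle. The spindle checkpoint holds the anaphase-promoting complex until every chromosome is attached, after which separase cuts cohesin and the central spindle guides cytokinesis. Most of these genes are transcribed only late in the cell cycle, under the MuvB complex, B-Myb and FOXM1, through a promoter element called the cell cycle genes homology region (CHR), often with CCAAT boxes bound by NF-Y nearby. In the epidermis division is largely a property of the basal layer, and cells that leave it for the spinous layer mostly stop dividing.

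The CHR is shown first. It and the CCAAT box were the only promoter words searched for, and neither stood in every window. RefSeq promoter windows on GRCm38.p6, each from 250 bases before to 50 bases after a transcription start, were held for 32 of the 39 genes (34 windows, since *Ect2* and *Prc1* have a pair each). The letters TTTGAA, searched on both strands, stood in 27 of the 34 windows (79.4%), against 5878 of all 32851 windows (17.9%). The letters CCAAT, also on both strands, stood in 27 of 34 windows (79.4%), against 37.4% of all windows, and both words stood in 24 windows (70.6%), against 7.0% of all windows. The 2 words can share a T where they abut. In 22 of the 32 genes a CHR began within 50 bases of the start. How often it did so over all windows was not counted. The windows below are 30 bases each, written 5′ to 3′ on the strand that spells TTTGAA at the CHR nearest the start, with each CHR on either strand in capitals, and are drawn from several of the roles described further on and from both genes that did not pass the test.
Cdk1: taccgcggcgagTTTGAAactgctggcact
Plk1: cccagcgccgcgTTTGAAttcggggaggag
Aurka: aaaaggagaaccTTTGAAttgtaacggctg
Cenpa: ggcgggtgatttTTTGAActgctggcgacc
Kif4: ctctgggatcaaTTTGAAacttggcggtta
Anln: ggccgTTCAAAaTTTGAAtttcagcgcccc
Prc1: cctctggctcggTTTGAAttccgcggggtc
Cdc20: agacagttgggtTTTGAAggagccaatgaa
Kif23: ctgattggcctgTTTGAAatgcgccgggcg
Ube2c: ccgccgcccgcgTTTGAAttgcaaccctcc
These lie at chr10:69352910-69352939 (minus strand), chr7:122159453-122159482 (plus), chr2:172370521-172370550 (minus), chr5:30666890-30666919 (plus), chrX:100626072-100626101 (plus), chr9:22389168-22389197 (plus), chr7:80294434-80294463 (plus), chr4:118437344-118437373 (minus), chr9:61946780-61946809 (minus) and chr2:164769888-164769917 (minus). This nearest CHR is on the gene's own strand except in *Anln* and *Ube2c*. The *Anln* stretch holds a second CHR, TTCAAA as printed, which is on the gene's own strand. The first bases of the nearest CHRs lie between positions −29 and 33 relative to the transcription start, so some fall in the annotated first exon.

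In *Top2a* and *Kif11* a CHR and a CCAAT box both lie in the last 100 bases before the start, in sequence that no annotated exon covers. Only these 100 bases are printed. The *Top2a* window holds a further CHR at position −179 and further CCAAT boxes at −227, −189 and −149, which are not shown. Both are written on the strand of the gene, with each CHR (here in its reverse complement TTCAAA) and each CCAAT box (or its reverse complement ATTGG) in capitals.
Top2a: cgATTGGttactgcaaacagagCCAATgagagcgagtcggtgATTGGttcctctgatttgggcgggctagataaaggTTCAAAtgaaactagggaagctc
Kif11: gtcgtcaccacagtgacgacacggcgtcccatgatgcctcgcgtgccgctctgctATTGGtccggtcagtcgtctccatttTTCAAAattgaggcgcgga
The *Top2a* stretch is chr11:99024190-99024289 (minus strand) and holds 3 CCAAT boxes and 1 CHR. The *Kif11* stretch is chr19:37376282-37376381 (plus strand) and holds 1 of each.

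**Figure D1:**
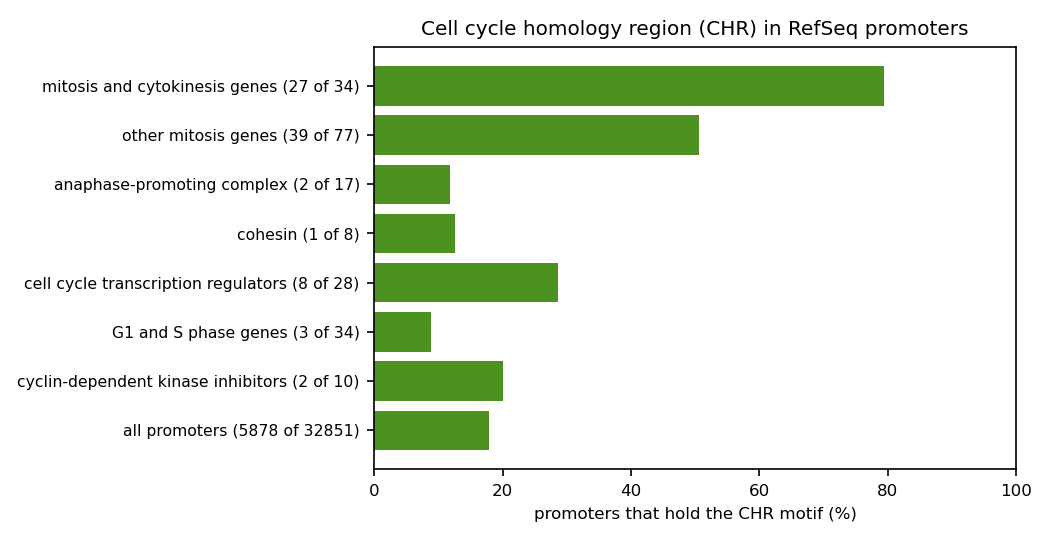
Share of RefSeq promoter windows that hold the CHR motif on either strand (x axis, percent), by gene list, with the number of windows in brackets. The mitosis and cytokinesis genes reach 79.4% and the other mitosis genes 50.6%, and the lists of the anaphase-promoting complex, cohesin and G1 and S phase stand at 11.8%, 12.5% and 8.8%, with transcription regulators at 28.6% and cyclin-dependent kinase inhibitors at 2 of 10 windows, against 17.9% of all windows.

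Other lists were searched in the same way. Of the 82 other mitosis genes described further on, 39 of 77 windows held the CHR (50.6%), while it stood in 3 of 34 windows of G1 and S phase genes (8.8%), in 2 of 17 of the anaphase-promoting complex (11.8%) and in 1 of 8 of cohesin (12.5%). Cell cycle transcription regulators had it in 8 of 28 windows (28.6%) and cyclin-dependent kinase inhibitors in 2 of 10. The letters CCAAT were more frequent in each of these lists than in all windows (37.4%). Their share ran from 41.2% in the anaphase-promoting complex to 55.9% in G1 and S phase genes and 64.9% in the other mitosis genes. Among all tested genes with a window, 451 of the 2240 that held the CHR were lower by limma (20.1%), against 15.4% of those without it. With the members left out, these were 428 of 2215 (19.3%) and 15.3%. The other mitosis genes, also a chosen list, were still among them. Whether the motif bears on the change was not tested. Members without the word in their windows were *Birc5*, *Bub1*, *Ccnb1*, *Cenpe*, *Mad2l1*, *Nuf2* and *Nusap1*, and no window was used for *Aurkb*, *Ccna2*, *Cdc25c*, *Foxm1*, *Incenp*, *Kif20a* and *Tpx2*. *Kif23* and *Ube2c*, the members that did not pass the test, both held it. No match says only that these letters are not in the window searched.

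Before the comparison, the labels were checked against the targeted genes. *Ring1* had 67.7, 104 and 112 normalized counts in the libraries labelled triple knockout, against 11.8, 8.72 and 23.1 in the controls (log2 change 2.70 ± 0.40, limma adjusted p = 0.000759), so it went against its label. *Eed* had 381, 604 and 441 in the libraries labelled triple knockout and 714, 1015 and 778 in the controls (limma adjusted p = 0.0144), and *Rnf2* had 783, 922 and 694 against 739, 875 and 1288 in the controls (limma adjusted p = 0.417). The *Eed* call was lost without labelled triple knockout replicate 1 (limma adjusted p = 0.0615) or 3 (0.0546) or without control replicate 2 (0.0525). Each value covers the whole gene, and the labels do not say which exons were deleted. Directions below are therefore given by label only. The deposited values summed to between 21896285 and 29805729 per library, and 1 read was worth about 0.716 to 1.31 normalized counts, which gives roughly 17.9 to 37.7 M assigned reads. The basal keratin gene *Krt5*, which marks the labelled tissue, had 101316, 109169 and 114282 normalized counts in the libraries labelled triple knockout and 234007, 153384 and 220776 in the controls.

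Mitosis and cytokinesis genes were lower almost throughout in the libraries labelled triple knockout. Of the 39 genes, 37 fell, none rose and 2 did not pass (limma across 23006 genes, adjusted p below 0.05), where 15.3% of all tested genes fell and 20.5% rose, 35.8% in either direction. No gene of the 39 was above 0 in its estimated change, so none was higher at an unadjusted p below 0.05 either. The median log2 change was −1.64, against 0.01 over all tested genes, and 35 of the 39 fell at least 2-fold, where 8.05% of all tested genes did. In 37 of 39 genes all 3 libraries labelled triple knockout lay below all 3 controls, a pattern that 23.0% of all tested genes showed, with 26.0% apart the other way. Log2 changes are on the log2(normalized count + 1) scale, labelled triple knockout minus control, with SE. Each gene averaged at least 214 normalized counts over the 6 libraries, so the filter on low values (a mean of at least 10) left none out.

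**Figure D2:**
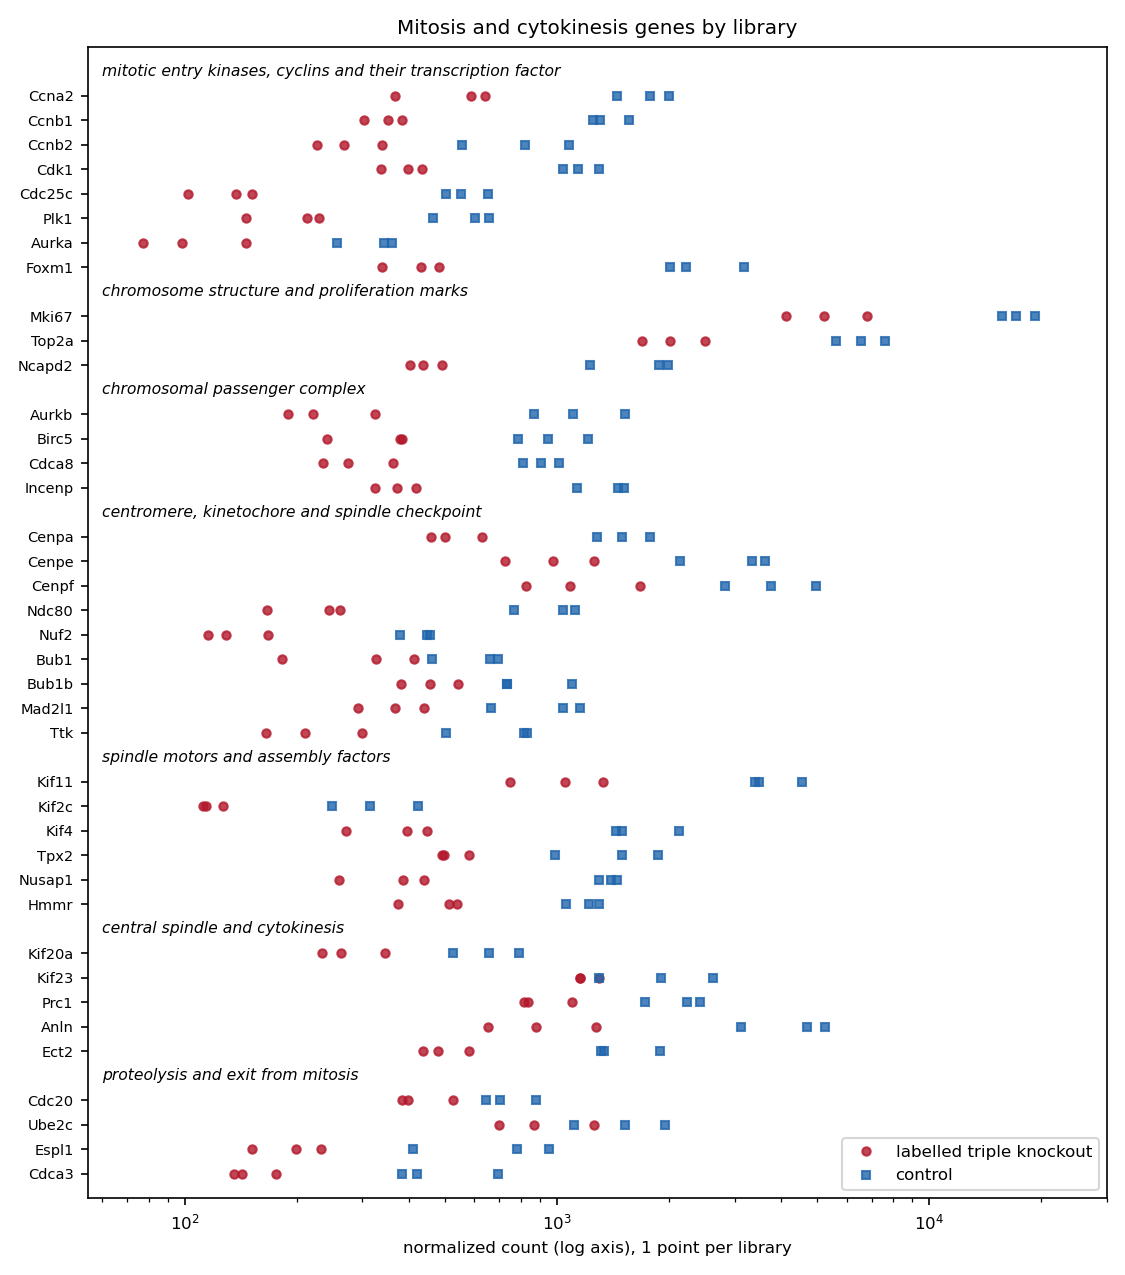
Normalized count (x axis, log scale) of each of the 39 genes in each library, grouped by role, with circles for the 3 libraries labelled triple knockout and squares for the 3 controls. The circles lie left of the squares without overlap in 37 genes, and overlap them in *Kif23* and *Ube2c*.

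The entry genes, 8 kinases, cyclins, a phosphatase and a transcription factor, fell without exception, with a median log2 change of −1.67 and no overlap between the groups in any of the 8. *Foxm1* (ENSMUSG00000001517.14, GRCm38 chr6:128362967-128376146, plus strand), the forkhead factor that activates late cell cycle genes, had 482, 338 and 432 normalized counts in the libraries labelled triple knockout, against 3186, 2217 and 2015 in the controls. Its log2 change of −2.55 ± 0.21 (limma adjusted p = 2.63e-05) had the largest size among the 39 members, and the triple knockout mean was 16.9% of the control mean. The lowest control stood 4.18 times above the highest library labelled triple knockout. *Ccnb1* (ENSMUSG00000041431.16, GRCm38 chr13:100778650-100786570, minus strand), cyclin B1 and the main partner of Cdk1 in mitosis, had 352, 303 and 384 in the libraries labelled triple knockout and 1561, 1248 and 1307 in the controls, a log2 change of −1.98 ± 0.16 (limma adjusted p = 2.62e-05). Its relative *Ccnb2*, cyclin B2, had 227, 268 and 338 against 821, 555 and 1075 in the controls (−1.52 ± 0.26, limma adjusted p = 0.00162). *Ccna2*, cyclin A2, which acts from S phase into early mitosis, had 587, 367 and 641 against 1996, 1445 and 1773 in the controls (−1.74 ± 0.23, limma adjusted p = 0.00039). The 95% intervals of the 3 cyclins overlapped one another.

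Among the entry kinases, *Cdk1* (ENSMUSG00000019942.13, GRCm38 chr10:69335146-69352938, minus strand), the catalytic partner of these cyclins, had 398, 337 and 433 normalized counts in the libraries labelled triple knockout, against 1297, 1136 and 1036 in the controls. It fell by 1.57 on the log2 scale (SE 0.16, limma adjusted p = 0.000106). *Cdc25c*, a phosphatase that switches Cdk1 on, had 138, 102 and 151 against 652, 503 and 551 in the controls (−2.13 ± 0.21, limma adjusted p = 7.88e-05). *Plk1*, the polo kinase of entry, spindle and cytokinesis, had 229.7, 146 and 213 against 657, 464 and 601 in the controls (−1.56 ± 0.23, limma adjusted p = 0.00072). *Aurka*, the centrosomal Aurora kinase, was the least abundant member by mean count, with 77.2, 98.4 and 146 against 360.3, 257 and 344 in the controls (−1.61 ± 0.27, limma adjusted p = 0.00151). The interval of *Foxm1* (−3.02 to −2.08) did not reach that of *Cdk1* (−1.94 to −1.20), and overlapped those of *Ccnb1*, *Cdc25c* and *Ccna2*.

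Genes of chromosome structure and the proliferation mark Ki-67 fell, 3 of 3, and their groups did not overlap. *Mki67* (ENSMUSG00000031004.8, GRCm38 chr7:135689784-135716361, minus strand), which coats mitotic chromosomes and is the usual stain for cycling cells, had 5219.9, 4125 and 6819 normalized counts in the libraries labelled triple knockout and 19188, 15711 and 17099.8 in the controls, a log2 change of −1.71 ± 0.18 (limma adjusted p = 0.000122). *Top2a*, the topoisomerase that untangles sister chromatids, had 2016, 1687 and 2489.8 against 7599, 6548 and 5602 in the controls (−1.68 ± 0.17, limma adjusted p = 0.000107). *Ncapd2*, a condensin I subunit, had 437, 402 and 489.9 against 1992, 1881 and 1229.6 in the controls (−1.91 ± 0.20, limma adjusted p = 0.000113). Per kilobase of the longest annotated transcript, *Mki67* and *Top2a* were also the highest of the 39 genes in the controls, at 1723 and 1261 normalized counts per kilobase, and *Espl1* and *Nuf2* the lowest, at 107 and 109.8.

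The chromosomal passenger complex, which corrects faulty attachments and then moves to the central spindle, was lower in all 4 subunits, with a median log2 change of −1.77. *Aurkb*, its kinase, had 222, 189.8 and 324 normalized counts in the libraries labelled triple knockout, against 1519, 1103 and 865 in the controls (−2.24 ± 0.26, limma adjusted p = 0.00019). *Incenp*, the scaffold that binds and activates the kinase, had 372, 324 and 418 against 1515, 1455 and 1132 in the controls (−1.87 ± 0.17, limma adjusted p = 5.39e-05). The targeting subunits *Birc5* (survivin) and *Cdca8* (borealin) averaged 334 ± 80.6 and 291 ± 65.1 in the libraries labelled triple knockout, against 983 ± 216 and 909 ± 101 in the controls (SD, n = 3 each), log2 changes of −1.56 and −1.66. The groups stood apart for each of the 4 genes.

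All 9 genes of the centromere, kinetochore and spindle checkpoint fell, by log2 changes of −2.12 to −0.88 (median −1.62). The groups did not overlap in any of the 9. *Ndc80* (ENSMUSG00000024056.10, GRCm38 chr17:71496100-71526857, minus strand), the microtubule-binding subunit of the complex named after it, had 244, 166 and 261 normalized counts in the libraries labelled triple knockout, against 1116, 1037 and 766 in the controls (−2.12 ± 0.22, limma adjusted p = 0.000117). Its direct partner *Nuf2* had 129, 116 and 167 against 455, 448 and 377 in the controls (−1.64 ± 0.20, limma adjusted p = 0.000288). *Cenpa*, the histone H3 variant that marks centromeres, had 499, 459 and 628 against 1773, 1499 and 1278 in the controls (−1.52 ± 0.18, limma adjusted p = 0.000217). The kinesin *Cenpe*, which carries chromosomes to the spindle equator, and *Cenpf*, a protein of the outer kinetochore, averaged 985 ± 266 and 1195 ± 433 in the libraries labelled triple knockout, against 3026 ± 786 and 3849.6 ± 1067 in the controls (SD, n = 3 each), log2 changes of −1.62 and −1.71.

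Within the checkpoint, *Ttk* (Mps1), the kinase at its top, had 211, 165 and 300.1 normalized counts in the libraries labelled triple knockout, against 813, 829.8 and 502 in the controls (−1.67 ± 0.27, limma adjusted p = 0.00132). *Mad2l1*, the protein that binds and blocks Cdc20, had 438, 293 and 367 against 1035, 665 and 1151 in the controls (−1.35 ± 0.24, limma adjusted p = 0.00201). *Bub1b* (BubR1), another part of the inhibitor of Cdc20, had 456, 382 and 541 against 1095, 733 and 734 in the controls (−0.88 ± 0.21, limma adjusted p = 0.00958). *Bub1*, the kinase that protects cohesion at centromeres, had 412, 183 and 326 against 695, 662 and 463 in the controls (−1.04 ± 0.30, limma adjusted p = 0.0234), and its groups were parted by a factor of 1.12 between the nearest libraries. The *Bub1* call was lost without labelled triple knockout replicate 2 (log2 change −0.70, limma adjusted p = 0.0659) or 3 (−1.12, 0.0502), without control replicate 1 (−0.93, 0.0753) or 2 (−0.96, 0.0733), with GC content and length regressed out (−0.74, 0.0738) and without limma's trend and robust estimation (−1.04, 0.0608).

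**Figure D3:**
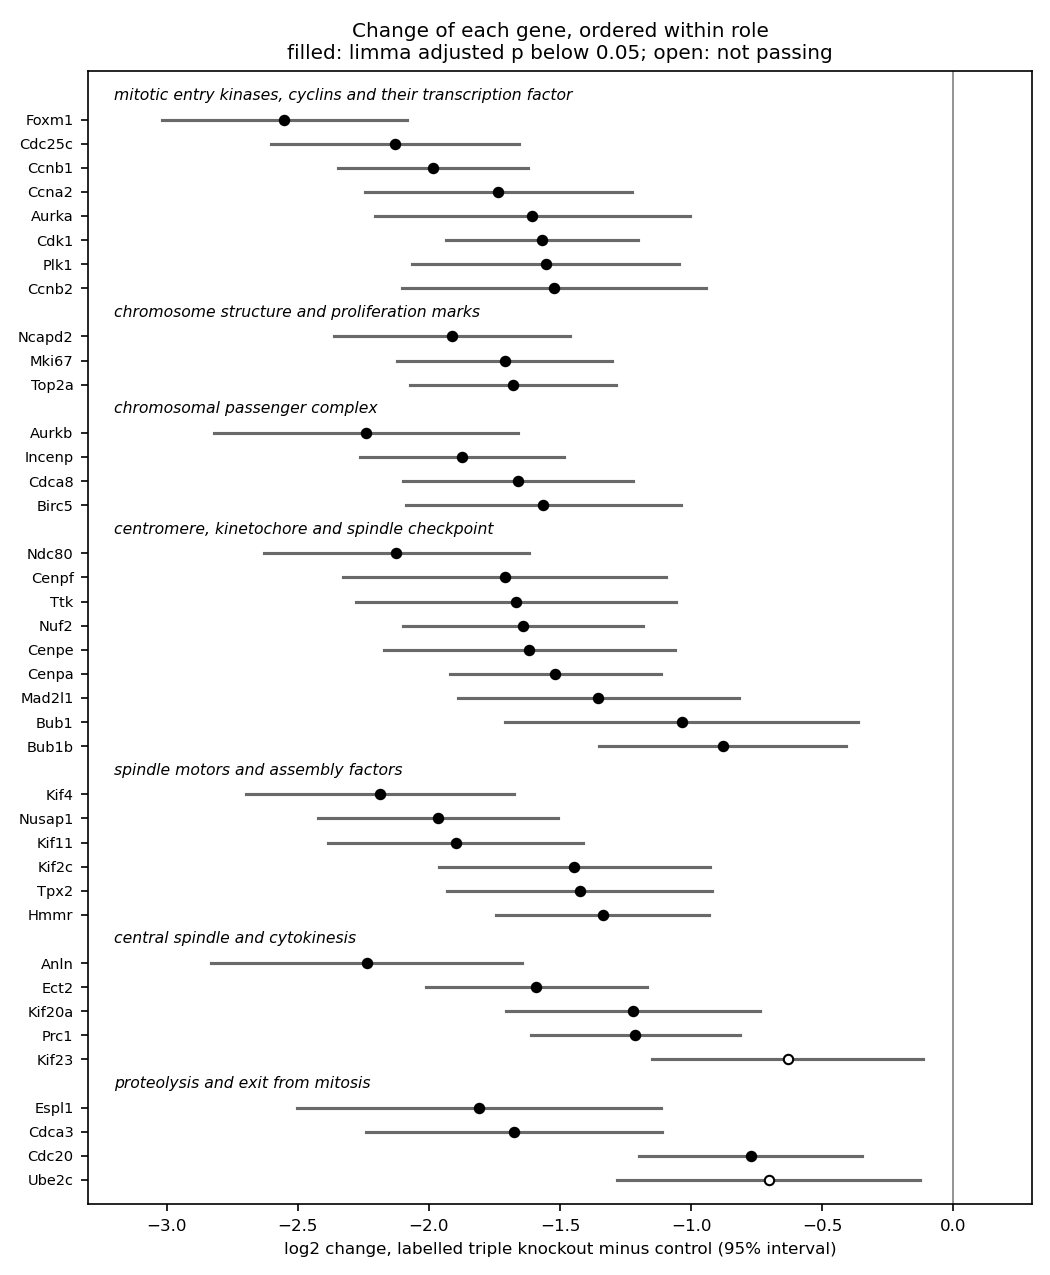
Log2 change of each gene (x axis, labelled triple knockout minus control) with its 95% interval from limma, grouped by role, where filled points passed the adjusted test and open points did not. All 39 estimates are below 0, from −2.55 in *Foxm1* to −0.63 in *Kif23*, and the open points are *Kif23* and *Ube2c*.

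Spindle motors and assembly factors fell, 6 of 6, with a median log2 change of −1.67, and the groups stood apart for each. *Kif4*, a chromosome-bound kinesin that shortens the central spindle, had 395, 271 and 448 normalized counts in the libraries labelled triple knockout, against 2128, 1490.5 and 1436 in the controls (−2.19 ± 0.23, limma adjusted p = 0.000107). *Kif11* (Eg5), the motor that pushes the spindle poles apart, had 1050.5, 747 and 1328 against 4558, 3492 and 3398 in the controls (−1.90 ± 0.22, limma adjusted p = 0.000176). *Nusap1*, which bundles microtubules near chromosomes, had 385, 259 and 439.98 against 1453, 1399.6 and 1298 in the controls (−1.97 ± 0.20, limma adjusted p = 0.000103), with the most even controls of the 39 genes. *Tpx2*, the activator of Aurora A on the spindle, averaged 523 ± 48.5 against 1450.5 ± 444 in the controls, and *Kif2c* (MCAK), a microtubule depolymerase, 118 ± 8.25 against 329 ± 88.5 (SD, n = 3 each), log2 changes of −1.43 and −1.45. *Hmmr*, a spindle-pole protein also known as a hyaluronan receptor, averaged 475 ± 89.3 in the libraries labelled triple knockout and 1191 ± 122 in the controls, a log2 change of −1.34 ± 0.18 (limma adjusted p = 0.000464).

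Of 5 genes of the central spindle and cytokinesis, 4 fell by limma, and the median of the 5 was −1.22. *Anln* (ENSMUSG00000036777.8, GRCm38 chr9:22332012-22389188, minus strand), the anillin scaffold of the contractile ring, had 877, 654 and 1274 normalized counts in the libraries labelled triple knockout, against 5250.1, 4693 and 3124 in the controls (−2.24 ± 0.26, limma adjusted p = 0.000217). *Kif23* (ENSMUSG00000032254.10, GRCm38 chr9:61915905-61946774, minus strand), the motor subunit of centralspindlin, had 1155, 1296 and 1155 against 2618, 1902 and 1296 in the controls (−0.63 ± 0.23, limma adjusted p = 0.0584). Control 3 lay within the range of the libraries labelled triple knockout, and without it *Kif23* passed (log2 change −0.89, limma adjusted p = 0.00096). The interval of *Anln* (−2.83 to −1.64) and that of *Kif23* (−1.15 to −0.11) did not meet. *Racgap1*, the GTPase-activating partner of *Kif23* in centralspindlin and no member of the 39, had 339, 237 and 494 in the libraries labelled triple knockout, against 1693, 1381 and 1415 in the controls (−2.12 ± 0.25, limma adjusted p = 0.000207); it was picked out after its values were seen.

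*Ect2*, the exchange factor that centralspindlin recruits to activate RhoA at the cleavage site, had 478, 435 and 581 normalized counts in the libraries labelled triple knockout, against 1886, 1341 and 1311 in the controls (−1.59 ± 0.19, limma adjusted p = 0.00022). *Prc1*, which crosslinks the microtubules of the central spindle, had 816, 837 and 1094 against 2414, 2236 and 1725 in the controls (−1.21 ± 0.18, limma adjusted p = 0.000742). *Kif20a*, the kinesin that brings the passenger complex to the central spindle, averaged 281 ± 58.2 against 657 ± 132 in the controls (SD, n = 3 each), a log2 change of −1.22. A share of 29.3% of the annotated exon bases of *Kif20a* overlaps *Cdc23*, which runs on the opposite strand and had means of 1029 and 1359 normalized counts in the libraries labelled triple knockout and in the controls, and without a stated strand setting their reads cannot be told apart.

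Genes of proteolysis and exit from mitosis were lower in 3 of 4, with a median log2 change of −1.22. *Espl1*, separase, which cuts cohesin at anaphase, had 198, 151 and 232 normalized counts in the libraries labelled triple knockout, against 779, 949 and 409.98 in the controls (−1.81 ± 0.31, limma adjusted p = 0.00171). *Cdca3*, named as a trigger of mitotic entry that acts in protein degradation, had 143, 135 and 176 against 420.1, 384 and 695 in the controls (−1.67 ± 0.25, limma adjusted p = 0.000833). *Cdc20*, the mitotic activator of the anaphase-promoting complex, had 383, 397 and 525 against 880.5, 644 and 704 in the controls (−0.77 ± 0.19, limma adjusted p = 0.0111), one of the smallest changes that passed. *Ube2c* (ENSMUSG00000001403.13, GRCm38 chr2:164769898-164778822, plus strand), the enzyme that starts ubiquitin chains for that complex, had 866, 697 and 1259 against 1524, 1109.8 and 1946 in the controls (−0.70 ± 0.26, limma adjusted p = 0.059). The highest library labelled triple knockout lay above the lowest control, so its groups overlapped. *Ube2c* passed with 7 of the alternatives, among them GC content and length regressed out (log2 change −1.10, limma adjusted p = 0.0091) and the omission of control replicate 2 (−0.92, 0.0275) or labelled triple knockout replicate 3 (−0.94, 0.027).

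The spread among the 39 genes can be given as numbers. Their log2 changes had an SD of 0.43, against 1.36 over all tested genes, and 22 lay between −2 and −1.5, with 6 below and 11 above that range. All tested genes include many at lower levels, and no set of like level was compared. The median gene of the 39 stood at 32.2% of its control mean, between 16.9% for *Foxm1* and 62.0% for *Kif23*. The estimates above −1 were those of *Bub1b*, *Cdc20*, *Ube2c* and *Kif23*. With quantile normalization, which shifted the all-gene median by −0.18 (log2), 45.6% of all calls were higher, against 57.3% without it, and the median of the 39 genes was −1.72, or 1.54 below the median of all genes.

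The genes also differed in level between libraries of 1 group. Among the libraries labelled triple knockout, the median gene was 1.71, 1.95 and 1.34 below its control mean on the log2 scale in replicates 1, 2 and 3, and replicate 3 was the highest of the 3 for 33 genes and replicate 2 the lowest for 33. The deposited totals of these 3 libraries were 23269000, 24703129 and 26995443. Among the controls the median gene stood 0.22 above, 0.03 below and 0.19 below the control mean in replicates 1, 2 and 3, and control 1 was the highest of the 3 for 33 genes. Controls 2 and 3 were mixed, with 17 and 7 genes above the control mean, and control 3 ran from −0.71 to 0.53. How often all tested genes showed these orders was not counted. The summed normalized count of the 39 genes was 24000.4, 19577.6 and 29631.8 in the libraries labelled triple knockout and 88417, 72407 and 66882 in the controls. Control 3, the lowest control for 25 genes, also had the highest sum of 7 fibroblast markers, 30284 normalized counts, against 8106.5 and 12417 in the other controls and 9355 to 14579 in the libraries labelled triple knockout. Without control 3, 38 of the 39 genes fell and the median log2 change was −1.68.

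**Figure D4:**
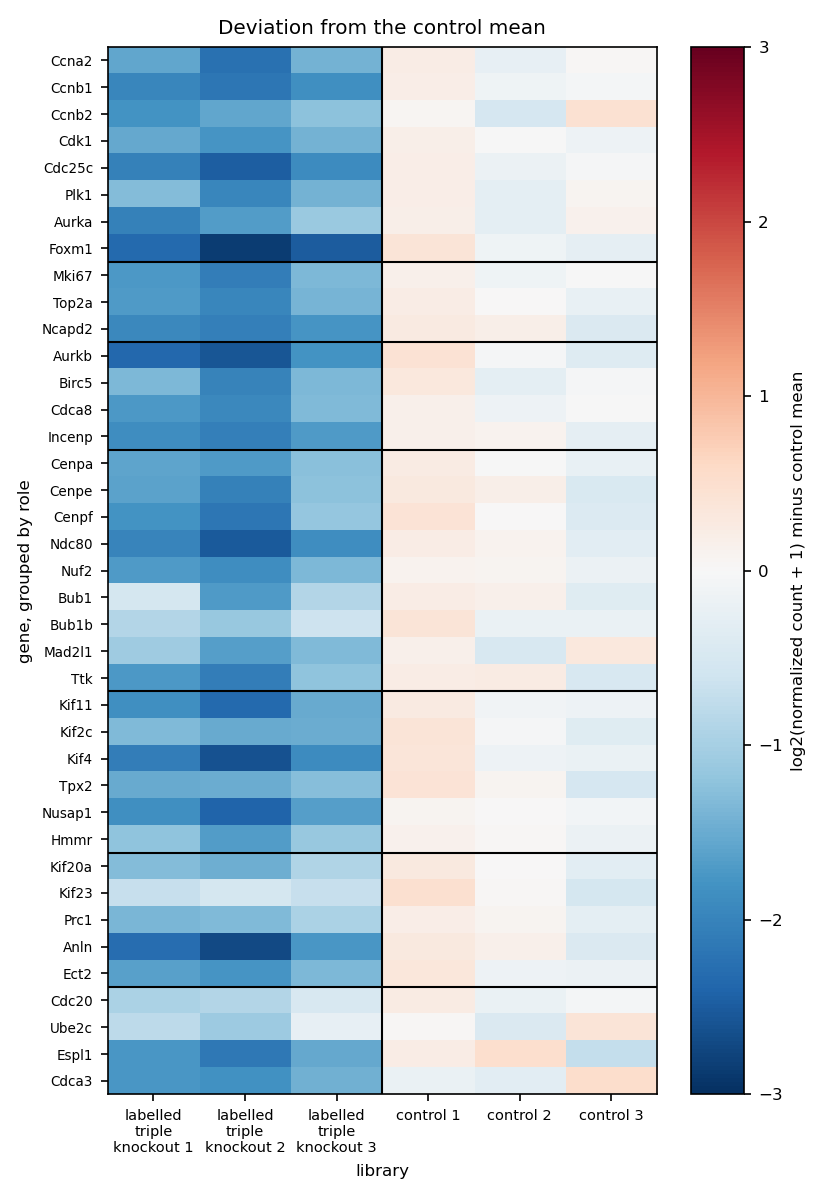
Deviation of each gene in each library from its control mean (colour, log2(normalized count + 1) units), with the 3 libraries labelled triple knockout left of the 3 controls and black lines between roles. Every cell on the left is below 0, and the medians of the 3 libraries are −1.71, −1.95 and −1.34.

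Other cells could enter the sort, and their markers were looked at beside this result. Among all tested genes 20.5% rose and 15.3% fell. Over 32 markers of fibroblasts, endothelium, leukocytes with Langerhans cells, skeletal muscle and erythroid cells, 24 were tested, 1 rose and 1 fell. Their summed level ranged from 11579 to 17156 normalized counts in the libraries labelled triple knockout and from 9393 to 33904 in the controls. Of the 8 leukocyte and Langerhans cell markers among them, 5 were tested, each with an estimate above 0, and 1 rose (*Cd52*). Their sums were 1072 to 1452 normalized counts in the libraries labelled triple knockout and 598 to 1522 in the controls. The 3 not tested were *Cd207*, *Cd3e* and *Trdc*, defining genes of Langerhans and T cells, with low values in every library. Of 7 melanocyte markers 6 rose, and the 6 tested Merkel cell markers rose (of 7), with sums of 1209.5 to 1823 and 2758 to 2996 normalized counts in the libraries labelled triple knockout, against 398 to 575 and 259.5 to 332 in the controls. *Atoh1*, the defining Merkel cell factor, was listed at 0 in each of the 3 libraries labelled triple knockout and in 2 controls. Of 10 hair follicle genes 2 rose and 3 fell, and of 5 tested Schwann cell genes 2 rose and 1 fell. The part of these cells in the lower values of the 39 genes was not tested.

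Epidermal layer markers changed as well, where 15.3% of all tested genes fell and 20.5% rose. Among 9 genes that mark basal cells or the sort, 7 fell and 2 rose, the risers being *Epcam* and *Ly6a* (Sca1), which encode surface proteins used to sort. *Ly6a* had 1262, 1499 and 1417 normalized counts in the libraries labelled triple knockout, against 118, 158 and 243 in the controls, and *Itga6*, the α6-integrin of the sort, had 7439, 7857 and 7714 against 27234, 26663 and 17459 in the controls. Of 10 suprabasal genes 5 rose and 3 fell, among them *Tgm1*, the cornified envelope transglutaminase, at 2846, 2519 and 2417 against 309, 268 and 251 in the controls, and *Krt1*, the spinous keratin, at 4826, 4378 and 4045 against 29137, 20849.6 and 27320.4 in the controls. In bulk RNA, fewer dividing cells and less of each RNA per dividing cell cannot be told apart, and the part of the layer mix in the result was not tested.

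Other genes of mitosis, 82 that are not members, followed the same direction in most cases. By limma 67 fell, 3 rose and 12 did not pass (median −1.54), where 15.3% of all tested genes fell. *Fbxo5* (Emi1), an inhibitor of the anaphase-promoting complex, had 15.1, 18.7 and 31.3 normalized counts in the libraries labelled triple knockout, against 254, 216 and 224 in the controls (−3.42 ± 0.30, limma adjusted p = 3.91e-05). *Smc4*, the core ATPase of condensin, had 1295, 1315 and 1777 against 5963, 4988 and 4752 in the controls (−1.85 ± 0.16, limma adjusted p = 4.09e-05). The shugoshins *Sgo1* and *Sgo2a*, which guard centromeric cohesin, averaged 112 ± 4.35 and 257 ± 19.2 in the libraries labelled triple knockout, against 574 ± 147 and 807 ± 76.0 in the controls, and *Cdca2*, a phosphatase subunit of mitotic chromosomes, averaged 167 ± 49.6 against 795 ± 56.8 (SD, n = 3 each). *Zwint*, a kinetochore scaffold, did not pass and had 1693, 1817 and 1681 against 1609.5, 1777 and 1519 in the controls. *Bub3*, a checkpoint protein, did not pass either (786, 704 and 719.9 against 1067, 837 and 959 in the controls, limma adjusted p = 0.0815).

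Against this run, 3 of the 82 were higher in the libraries labelled triple knockout, where 20.5% of all tested genes rose. *Psrc1*, a microtubule-binding protein of the spindle, had 766, 884 and 939.6 normalized counts in the libraries labelled triple knockout, against 248, 189.8 and 222 in the controls (1.97 ± 0.17, limma adjusted p = 4.03e-05). *Gtse1*, a microtubule-tip protein that also binds p53, had 522, 473 and 549 against 283, 175 and 336 in the controls (1.00 ± 0.24, limma adjusted p = 0.0105). *Pttg1*, securin, the inhibitor of separase, had 267, 209.7 and 327 against 160.1, 122 and 172 in the controls (0.81 ± 0.23, limma adjusted p = 0.0229), while *Espl1*, separase itself, fell. *Gtse1* and *Pttg1* were named after their values were seen. No library labelled triple knockout overlapped the controls in any of these 3, and 26.0% of all tested genes stood apart in this direction.

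Machinery that is present beyond mitosis was counted in the same way, beside the 15.3% of all tested genes that fell and the 20.5% that rose. Of 15 genes of the anaphase-promoting complex with its interphase activator *Fzr1*, 5 fell by limma and the other 10 did not pass; the list's median was −0.40. *Anapc5* had 1456, 1481 and 1619 normalized counts in the libraries labelled triple knockout, against 4121, 3615 and 3536 in the controls (−1.30 ± 0.13, limma adjusted p = 6.91e-05), *Anapc4* fell by 0.94, *Anapc10* by 0.75, *Anapc1* by 0.57 and *Cdc23* by 0.40 on the log2 scale, and *Cdc27* and *Anapc2* did not pass (−0.33 and 0.11). Of 10 cohesin genes, which hold sister chromatids together, 8 fell by limma, none of them 2-fold, and the list's median was −0.57. *Rad21*, the subunit that separase cuts, had 2522, 2518 and 3326 against 5209, 4266 and 6445 in the controls (−0.92 ± 0.18, limma adjusted p = 0.00364). *Smc1a*, *Smc3*, *Stag2*, *Mau2* and *Wapl* fell by 0.58, 0.64, 0.65, 0.56 and 0.45 on the log2 scale, and *Nipbl* and *Pds5a* did not pass. The difference in size between these lists and the 39 genes was not tested.

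**Figure D5:**
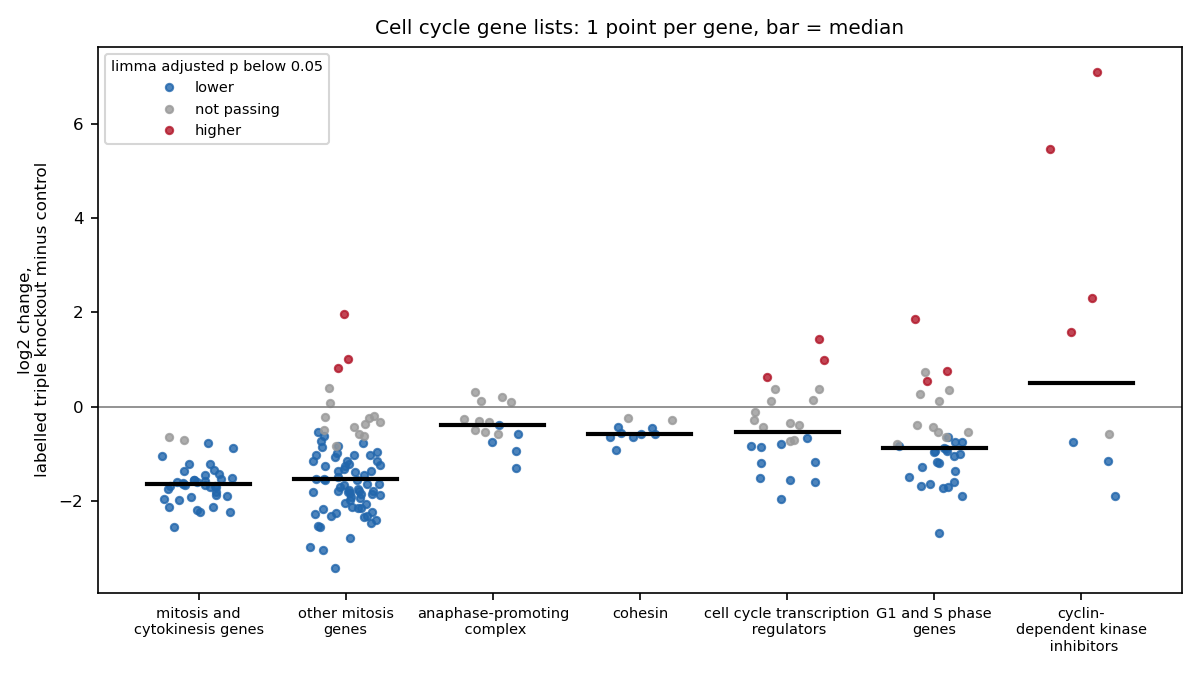
Log2 change (y axis, labelled triple knockout minus control) of each gene in the cell cycle lists, 1 point per gene, coloured by its call, with a bar at the median of each list. Medians run from −1.64 in the 39 mitosis and cytokinesis genes and −1.54 in the other mitosis genes to −0.40 in the anaphase-promoting complex and 0.49 in the cyclin-dependent kinase inhibitors, which also hold the highest points.

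Regulators of cell cycle transcription were listed by name, and their binding to these promoters was not measured. Of 24 such regulators, 10 fell and 3 rose by limma, where 15.3% of all tested genes fell and 20.5% rose. The list's median was −0.55. The other 11 did not pass. *Mybl2*, the B-Myb subunit that joins MuvB on the CHR, had 182, 111 and 175 normalized counts in the libraries labelled triple knockout, against 475, 388 and 495 in the controls (−1.55 ± 0.23, limma adjusted p = 0.000833), and *Lin9*, a MuvB core subunit, had 333, 289.8 and 279.5 against 591, 778 and 675 in the controls (−1.17 ± 0.17, limma adjusted p = 0.000709). *Lin54*, the MuvB subunit that reads the CHR, did not pass (687, 868 and 612 against 1055, 935 and 912 in the controls, limma adjusted p = 0.0707). These 3 were named for their part at the CHR, after their values were seen. The atypical repressors *E2f7* and *E2f8* fell and averaged 744 ± 96.0 and 504 ± 114 in the libraries labelled triple knockout, against 2132 ± 437 and 1921 ± 145 in the controls (SD, n = 3 each). *Tfdp2*, a dimer partner of E2F proteins, and *Rbl1* (p107) fell too, with log2 changes of −1.60 and −1.20. In the other direction, *Rb1*, the retinoblastoma protein gene, had 1211, 1119 and 1321 against 650.3, 614 and 563 in the controls (1.00 ± 0.14, limma adjusted p = 0.000606), *Mybl1*, A-Myb, had 292, 258 and 281 against 95.5, 106 and 102 (1.44 ± 0.18, limma adjusted p = 0.000342), and *E2f4*, the E2F of repressor complexes in resting cells, had 816, 1126 and 969 against 666, 676 and 536 (0.63 ± 0.17, limma adjusted p = 0.0189). *E2f4* too was named after its values were seen. *Trp53* and *Tfdp1* did not pass (0.13 and −0.38).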

How the data were processed

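Total RNA was reverse transcribed, amplified and read from 1 end, per the labels' protocols. Values in the table the authors deposited are normalized counts, per the file headers, and enter every step as a signal. Kallisto 0.42.5 and DESeq2 were used, per the submitters' processing notes, and the annotation, strand setting and scaling are not given in the sources used here. Among low values (20 reads or fewer), 25.9% to 42.6% were whole multiples of 1 read to within 0.01, so whole reads were not recovered and no count model was run. Gene coordinates are the deposited ones, and 98.4% were identical to GENCODE M21 on GRCm38. Kallisto estimates shares between similar transcripts, and exons of 10 of the 39 genes overlap a gene on the opposite strand. The largest overlaps were 29.3% of exon bases in *Kif20a*, 22.8% in *Ube2c*, 15.1% in *Kif4*, 12.7% in *Cdc25c* and 12.5% in *Ccna2*. The gene opposite *Kif4*, *Pdzd11*, averaged 471 normalized counts in the libraries labelled triple knockout and 360 in the controls.

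Values were analysed as log2(normalized count + 1). The 23006 genes with a mean of at least 10 went through limma 3.58.1 (R 4.3.3) (trend and robust empirical Bayes, no covariate, all 6 libraries, Benjamini-Hochberg adjustment over all genes tested, threshold 0.05). The procedure was also run on simulated data. There the genes were independent and far fewer were changed than were called here, so that run does not show how it performs on these data. Members and lists were chosen with earlier results of these data known. Each member is described. Of each other cell cycle list, the rule names at most 6 called genes, those of smallest p, and at most 2 genes of highest level that did not pass. Genes of these lists named beyond the rule are marked in the text as picked or named after their values were seen. Cell type markers were named outside this rule. Promoter sequences are RefSeq's for GRCm38.p6.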

Additional observations from a re-analysis of the deposited data

How the results depend on the processing

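Of the 39 mitosis and cytokinesis genes, 36 to 39 fell and none rose under the alternatives run: a pseudocount of 0.5 or 5, filters at 0 or 50, TMM factors, quantile normalization, limma without trend and robust estimation, GC content and length regressed out, each library left out in turn, and, added after the data were seen, an equal protein-coding total. The median log2 change stayed between −1.81 (without labelled triple knockout replicate 3) and −1.498 (without labelled triple knockout replicate 2). Calls moved for *Bub1*, *Kif23* and *Ube2c* only. Same-numbered libraries of the 2 groups did not deviate together (correlations of 0.061, −0.023 and 0.022 for replicates 1, 2 and 3), so the numbers are not taken as pairs. With the replicate number as a block, 39 genes fell, *Kif23* (limma adjusted p = 0.0421) and *Ube2c* (0.0063) among them, the median was unchanged at −1.64, and 4761 genes of the whole table were higher and 3345 lower. Other mitosis genes numbered 61 to 70 lower and 2 to 3 higher. Among the targeted genes, the log2 change of *Eed* ranged from −1.01 to −0.67 with single libraries left out and passed the test without each library but labelled triple knockout replicates 1 and 3 and control replicate 2, and *Rnf2* turned to 0.085 (limma adjusted p = 0.809) with GC content and length regressed out. The cause was not tested. Reads behind a gene are known only approximately, so no counting error is given.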

Other observations

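Genes of the cell cycle before mitosis did not all follow the 39 mitosis and cytokinesis genes. Of 36 genes of G1 and S phase, 23 fell, 3 rose and 10 did not pass by limma, with a median log2 change of −0.88. Over all tested genes 15.3% fell and 20.5% rose. The 3 that rose were the D-type cyclins, which couple growth signals to entry into the cycle. *Ccnd1* had 11032, 11698 and 13737 normalized counts in the libraries labelled triple knockout, against 3068, 3382 and 3631 in the controls (1.85 ± 0.13, limma adjusted p = 1.24e-05), *Ccnd2* had 32215, 34081 and 39704 against 25629, 19122 and 18199 in the controls and *Ccnd3* 1903, 2263 and 2453 against 1870.2, 1284 and 1432. *Ccnd2* and *Ccnd3* were named after their values were seen. Among the 23 that fell, those of smallest p were the helicase subunits *Mcm6* and *Mcm4* (log2 changes of −1.88 and −1.49), *Gins1* (−2.68), *Gmnn*, geminin (−1.60), and *Rfc3*, a clamp loader subunit (−1.37), while *Cdk6* and *Cdk4* did not pass (0.26 and 0.36).

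Of 8 cyclin-dependent kinase inhibitors 4 rose and 3 fell in the same libraries, where 20.5% of all tested genes rose and 15.3% fell. *Cdkn1a* (p21) had 23053, 22431 and 24029 normalized counts in the libraries labelled triple knockout, against 4176, 4665 and 5256 in the controls (2.31 ± 0.12, limma adjusted p = 3.34e-06), and *Cdkn1c* (p57) had 1183, 1489 and 1532 against 425, 357 and 673 in the controls. *Cdkn2a*, which encodes p16 and p19Arf and is a known Polycomb target, had 171, 184 and 159 in the libraries labelled triple knockout and was listed at 0 in 2 controls and at 0.99 in the other, and its neighbour *Cdkn2b* (p15) had 308, 314 and 208 against 5.25, 3.27 and 8.03 in the controls. *Cdkn1b* and *Cdkn2c* fell by 0.75 and 1.14 on the log2 scale, *Cdkn2d* did not pass (−0.59), and *Cdkn3*, a phosphatase of Cdk1 and Cdk2 that is itself a late cell cycle gene and was named after its values were seen, had 28.9, 19.5 and 27.0 against 60.8, 82.5 and 169 in the controls (−1.89 ± 0.39, limma adjusted p = 0.00468). Whether these changes bear on the lower mitosis genes was not tested.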
